A study of Mus musculus with 10 samples.

Results

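The 10 genes described here are components and direct outputs of the circadian clock: Dbp, Tef, Per1, Per2, Per3, Nr1d1, Nr1d2, Arntl, Npas2 and Nfil3. They were taken by symbol from the 31053 genes in the files, and all 10 were found. The annotation places Dbp (ENSMUSG00000059824) at chr7:45705088-45710203 on the plus strand, Arntl (ENSMUSG00000055116) at chr7:113207465-113314126 on the plus strand and Nr1d1 (ENSMUSG00000020889) at chr11:98767932-98775333 on the minus strand of GRCm38. They were chosen with their levels in these tissues known, so the levels that follow are a description and carry no test. Frozen sections 10 µm thick lay on Visium slides (10x Genomics), whose barcoded spots capture the RNA of the tissue above them, and each transcript was counted by its unique molecular identifier (UMI). Several cells, or parts of cells, can share a spot. The 10 sections came from 7 mouse tissues: NEJ634, NEJ723, NEJ687, NEJ638, NEJ654 and NEJ677 with 1 section each, and NEJ146 with 4 adjacent sections.

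The tumour model is the ABC-Myc mouse, in which Cre recombinase under the albumin enhancer and promoter removes a floxed STOP cassette and so switches on a human c-MYC transgene driven by the ubiquitous CAG promoter in cells of the hepatoblast and hepatocyte lineage, on the C57BL/6J background. Control mice were littermates without one or both alleles. The human transgene was not counted in the files. Labels call every sample hepatoblastoma, with NEJ146 cut from the tumor and the others from mouse liver, and the study's text names NEJ634, NEJ723, NEJ687 and NEJ146 as tumours and counts healthy livers without naming them. The study counts 3 healthy livers beside 4 tumours in its spatial work, and NEJ638, NEJ654 and NEJ677 are the 3 tissues left. No source used here names them as livers of healthy mice one by one. The labels give neither a genotype nor an age for each tissue, so tissues are compared by name and never averaged together. The markers fixed for hepatoblastoma (Afp, Igf2, Dlk1 and Gpc3) summed to between 2136 and 4630 counts per 1000000 UMIs (CPM) in NEJ634, NEJ723, NEJ687 and NEJ146, and to between 4.61 and 15.0 CPM in NEJ638, NEJ654 and NEJ677, which goes against the label of those 3 tissues. Afp made up most of the sum in the first 4. Gpc3 overlapped, with 5.12 CPM in NEJ638 against 4.06 in NEJ687 and 3.59 in NEJ146. Hepatocyte markers (Alb, Apoa1, Ttr, Cyp2e1 and Cps1) summed to between 19860 and 29260 CPM in the first 4 and to between 81330 and 115700 CPM in the other 3. Cps1 overlapped, with 2306 CPM in NEJ687 and 2273 in NEJ146 against 1867 in NEJ654 and 1701 in NEJ677. The gap for Apoa1 was 1.03-fold. Mice were kept on a 12 h light and 12 h dark cycle with free access to food, and the time of day at which each tissue was taken is not given in the sources used here. Tissue, animal and time of collection therefore cannot be told apart. No tissue other than NEJ146 has a second section, so the spread within a tissue was measured in NEJ146 alone.

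Tissue spots numbered between 1890 and 4878 per section and carried between 39280329 and 117077925 UMIs in total. The labels name total RNA for NEJ146 and polyadenylated RNA for the other 6 tissues, and mitochondrial transcripts took between 6.78 and 7.22% of UMIs in the NEJ146 sections against between 2.46 and 3.86% elsewhere. For NEJ146, RNA fraction and tissue cannot be told apart. In these bulk sums over spots, fewer expressing cells and less RNA per cell cannot be told apart.

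The circadian clock is a feedback loop that most cells run by themselves. BMAL1, encoded by Arntl, pairs with CLOCK or with its paralogue NPAS2 and activates genes through E-box elements, among them the Per genes, the nuclear receptors Nr1d1 and Nr1d2 (REV-ERB) and the transcription factors Dbp and Tef. PER proteins inhibit that activator, while the REV-ERB receptors repress genes that carry ROR response elements (ROREs), among them Arntl, Npas2 and Nfil3, whose transcripts therefore peak when those of Dbp and Nr1d1 are low. DBP and TEF activate D-box elements and NFIL3 represses the same elements. In the liver this loop drives daily rhythms of bile acid, haem, glycogen and drug metabolism, and feeding and glucocorticoids also set it.

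The promoters of a few members show where these elements lie. RefSeq windows of 300 bases, from 250 before to 50 after an annotated start on GRCm38.p6, were found for 9 of the 10 genes (12 windows), and Per2 had no window in the table used. They were searched on both strands for the E-box CACGTG, the D-box TTATGNAA, where N is any base, and the RORE. These motifs occur in 7.15%, 3.38% and 0.435% of all 32851 windows. Matches were found in Tef (E-box, in each of its 2 windows), Per1 (E-box and D-box), Per3 (2 D-boxes) and Arntl (RORE). A match is a run of letters and not a measured binding site, and genes without one here may carry elements outside the window. The sequences shown are those of the 4 members with a match, with the first window of Tef. The first 3 are the 250 bases before the start, 5′ to 3′ on the strand of the gene, with matched motifs in capitals.
Per1, chr11:69098699-69098948, plus strand: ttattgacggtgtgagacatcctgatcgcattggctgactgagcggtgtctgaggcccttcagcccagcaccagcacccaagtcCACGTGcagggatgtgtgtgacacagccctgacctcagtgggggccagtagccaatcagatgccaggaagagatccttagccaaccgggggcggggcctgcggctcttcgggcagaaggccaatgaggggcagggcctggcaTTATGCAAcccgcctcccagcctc
Per3, chr4:151044666-151044915, minus strand: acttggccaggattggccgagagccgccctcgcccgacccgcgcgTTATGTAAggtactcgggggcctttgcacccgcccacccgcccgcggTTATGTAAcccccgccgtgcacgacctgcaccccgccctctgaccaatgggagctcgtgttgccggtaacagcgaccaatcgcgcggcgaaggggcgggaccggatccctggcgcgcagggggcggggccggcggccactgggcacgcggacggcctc
Tef, chr15:81802423-81802672, plus strand: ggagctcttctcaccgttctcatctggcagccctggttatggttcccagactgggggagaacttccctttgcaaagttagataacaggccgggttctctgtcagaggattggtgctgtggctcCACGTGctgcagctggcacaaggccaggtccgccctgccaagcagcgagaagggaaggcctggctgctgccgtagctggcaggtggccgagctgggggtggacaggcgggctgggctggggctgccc
Arntl, chr7:113207528-113207557, plus strand, 30 bases with the RORE in capitals: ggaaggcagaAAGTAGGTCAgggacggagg
In Per1 the E-box began 166 bases before the start and the D-box 24 bases before it. The D-boxes of Per3 began 205 and 158 bases before the start. The RORE of Arntl began at base 28 of the transcript that starts in its second window.

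Dbp, which encodes a D-box activator and is among the strongest cycling transcripts of the liver, had the widest range of the 10. Its level was 208.7 CPM (95% interval 204.8 to 212.7) in NEJ638, 48.2 (46.0 to 50.4) in NEJ677, 18.5 (17.4 to 19.7) in NEJ634, 12.5 (11.5 to 13.6) in NEJ723, 7.11 (6.43 to 7.83) in NEJ687, 4.37 ± 0.352 (SD, n = 4 sections) in NEJ146 and 2.99 (2.49 to 3.56) in NEJ654. The 4 sections of NEJ146 read 4.15, 4.77, 4.55 and 4.01 CPM. The highest and the lowest tissue are both among the 3 with few hepatoblastoma markers, and on the log2(CPM + 1) scale used for all folds below they differed 52.6-fold. Intervals here are exact Poisson intervals of the count, at 95%, and cover counting error only. A pair of neighbours in the order of tissues was read as differing when the log2 difference exceeded 3 times the larger of the SD of that gene over the NEJ146 sections and the median such SD of all genes that average 10 CPM or more (0.0811), and the intervals did not overlap. All 6 neighbouring pairs of Dbp met this rule, the only member of the 10 for which they did.

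Tef, the other D-box activator of the set, had the same tissue at the top. It reached 146.1 CPM in NEJ638, followed by 48.4 in NEJ677, 47.7 in NEJ723, 46.3 in NEJ687, 42.1 in NEJ634, 28.6 ± 2.27 (SD, n = 4 sections) in NEJ146 and 27.2 in NEJ654. NEJ638 stood 2.98-fold above NEJ677, and NEJ677, NEJ723, NEJ687 and NEJ634 did not differ from each other in turn beyond the spread. NEJ634 lay above NEJ146 by 0.54 on the log2 scale, beyond the spread, and NEJ146 and NEJ654 did not differ beyond it.

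Per3, a period gene that mostly follows the D-box activators in the liver, was 51.0 CPM in NEJ638, 12.2 in NEJ634, 10.8 in NEJ723, 6.63 in NEJ687, 5.57 in NEJ677, 3.27 ± 0.556 (SD, n = 4 sections) in NEJ146 and 1.39 in NEJ654. NEJ638 and NEJ654 differed 21.8-fold, or by 4.45 on the log2 scale, and by 5.10 with a pseudocount of 0.1 CPM. Between them the pairs NEJ634 and NEJ723 and NEJ687 and NEJ677 did not differ beyond the spread, which for Per3 was the largest of the 10 members (SD 0.184 in log2 over the NEJ146 sections).

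Per1 and Per2 encode the main negative arm of the loop and also answer directly to glucocorticoid and cyclic AMP signals. They split the tissues in another way. Per1 was highest in NEJ723 with 60.4 CPM, while NEJ687, NEJ634 and NEJ638 held 34.2, 33.7 and 33.2 CPM and did not differ from each other beyond the spread. NEJ146 had 17.0 ± 0.984 (SD, n = 4 sections), and NEJ677 and NEJ654 had 3.77 and 3.62 CPM with overlapping intervals. Per2 was 21.3 CPM in NEJ638, between 6.57 and 8.47 in NEJ634, NEJ723 and NEJ687, and between 2.18 and 2.67 in NEJ677, NEJ654 and NEJ146. Both genes were thus 6.08-fold or more higher in NEJ638 than in NEJ677, and both had 1.03-fold or less between NEJ677 and NEJ654, the pair in which Dbp differed 12.3-fold.

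Nr1d1 and Nr1d2 encode the repressors that act on Arntl, Npas2 and Nfil3. Nr1d1 was 34.0 CPM in NEJ677, 31.4 in NEJ638 and 11.1 in NEJ654, against 6.14 in NEJ634, 5.59 ± 0.300 (SD, n = 4 sections) in NEJ146, 5.50 in NEJ723 and 4.91 in NEJ687. Neighbouring pairs among the last 4 tissues did not differ beyond the spread, and all 4 lay below NEJ654, which was 1.69-fold above NEJ634, beyond it. Nr1d2 was 76.4 CPM in NEJ638 and 48.6 in NEJ677, and from 19.7 to 28.6 CPM across the remaining 5 tissues, where no neighbouring pair differed beyond the spread. Nr1d1 was the only one of the 10 genes whose levels in NEJ634, NEJ723, NEJ687 and NEJ146 did not overlap those of NEJ638, NEJ654 and NEJ677. It was lower in the first 4, as were 18.1% of the 8021 genes that average 10 CPM or more. No member was higher in the first 4 without overlap, against 44.1% of those genes. With median ratio size factors Nr1d2 was lower without overlap as well, where the share of all genes was 31.6% lower and 31.1% higher, and with a gap of at least 2-fold required no member was (4.76% of all genes). Marker sums differed between these sets too. In the first 4 neutrophil markers summed to 171.0 to 630.8 CPM against 2.98 to 6.84, and erythroid markers to 680 to 7430 against 78.2 to 204.1. Of the erythroid markers Alas2 overlapped, with 5.31 CPM in NEJ634 against 50.7 in NEJ677. Proliferation genes summed to 391.2 to 705.7 CPM against 24.1 to 125.7, and lymphocyte markers to 4.86 to 7.43 against 2.99 to 4.33. The lymphocyte markers did not move together. Nkg7 alone was higher in the first 4 without overlap, while Cd3e and Cd79a overlapped. Ms4a1 was lower there without overlap, by 0.029 on the log2 scale, within the spread. Macrophage, stromal, endothelial and bile duct sums overlapped. Their part in the level of Nr1d1 was not tested.

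The 3 members of the opposite phase had NEJ654 at the top in common. Arntl, the gene of BMAL1, was 18.8 CPM (17.5 to 20.1) in NEJ654, 8.11 ± 0.276 (SD, n = 4 sections) in NEJ146, 7.63 in NEJ723, 6.32 in NEJ687, 5.31 in NEJ634, 5.24 in NEJ677 and 1.41 (1.10 to 1.77) in NEJ638. Neighbouring pairs among the 5 tissues in the middle did not differ beyond the spread, while NEJ654 lay above NEJ146 and NEJ677 above NEJ638 beyond it. Npas2 was 5.95 CPM in NEJ654, 0.866 in NEJ677 and 0.700 ± 0.0415 (SD, n = 4 sections) in NEJ146, and no more than 0.279 in the other 4 tissues, where it rested on between 9 and 16 UMIs each. Nfil3 was 32.2 CPM in NEJ654, between 19 and 22.7 in NEJ723, NEJ687, NEJ146 and NEJ634, 11.6 in NEJ638 and 10.6 in NEJ677. NEJ654 was therefore the highest of the 7 tissues for all 3 genes, 8.22-fold above NEJ638 for Arntl, 5.91-fold for Npas2 and 2.64-fold for Nfil3. The pseudocount sets part of these folds: with 0.1 CPM in place of 1, the log2 difference of NEJ638 from NEJ654 went from -3.04 to -3.65 for Arntl and from -2.56 to -4.46 for Npas2.

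**Figure D1:**
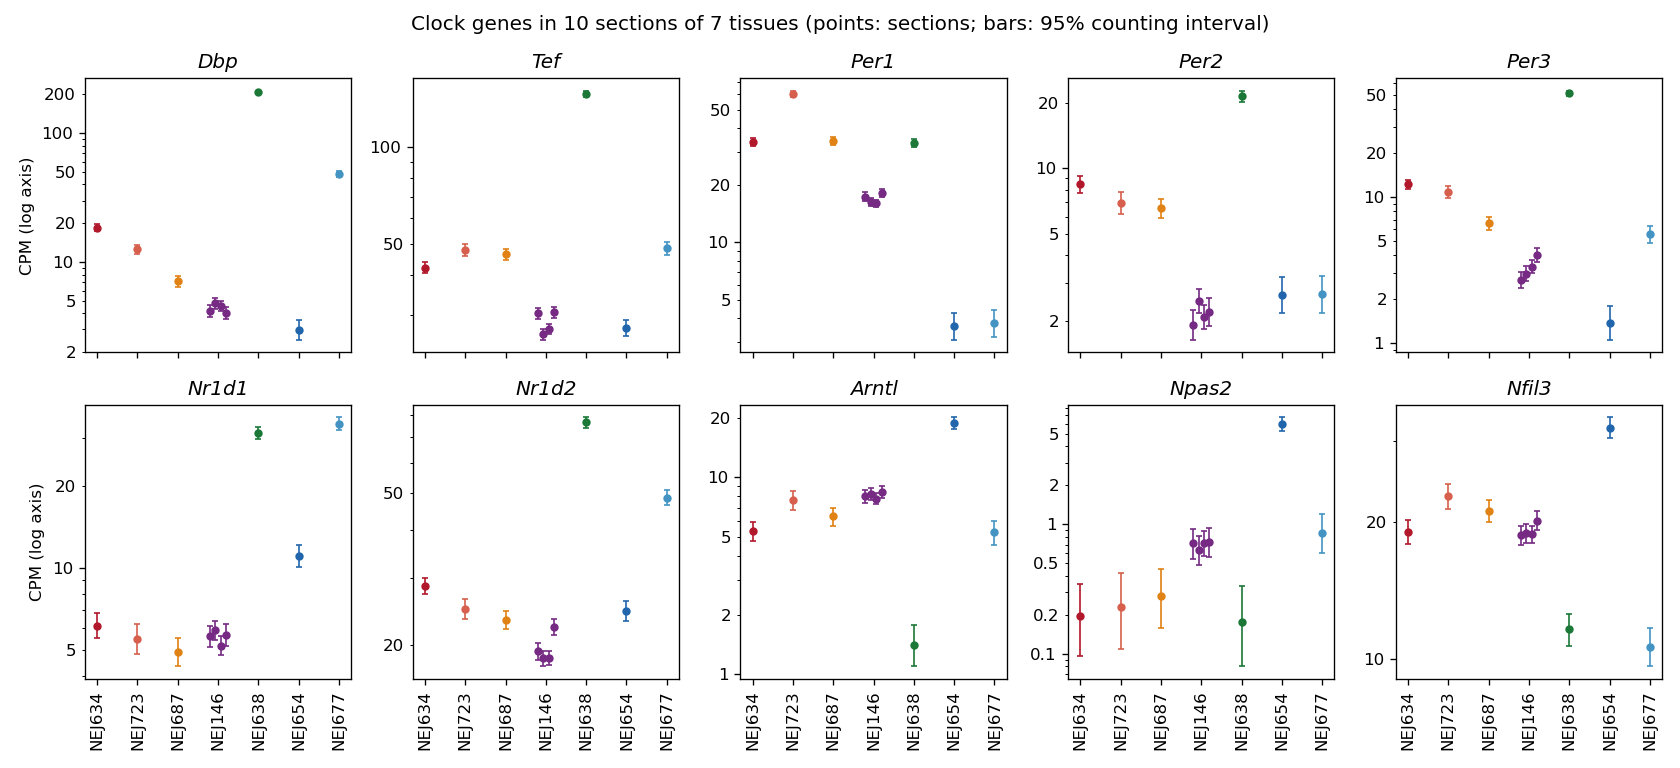
CPM (log axis) of each of the 10 clock genes, with 1 point per section, tissues on the horizontal axis and bars for the exact 95% counting interval. NEJ638 holds the highest point for Dbp, Tef, Per2, Per3 and Nr1d2, NEJ654 the highest for Arntl, Npas2 and Nfil3, and the 4 sections of NEJ146 lie close together beside the distances between tissues.

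The balance of both groups was summarised by the mean log2(CPM + 1) of the 7 E-box-driven genes minus that of Arntl, Npas2 and Nfil3, called the phase difference here. Because the genes differ in their usual levels, its zero has no meaning of its own, and only the order and distance of tissues can be read. It does not depend on how a section is scaled, apart from the pseudocount. It was 4.21 in NEJ638, 1.80 in NEJ634, 1.76 in NEJ677, 1.52 in NEJ723, 1.25 in NEJ687, 0.427 ± 0.0258 (SD, n = 4 sections) in NEJ146 and -1.14 in NEJ654. The 4 NEJ146 sections gave 0.401, 0.438, 0.411 and 0.458. NEJ638 and NEJ654 lay 5.34 apart, whereas NEJ634, NEJ723, NEJ687 and NEJ146 spanned 1.38 and all lay between those 2. NEJ677 fell among them by this value although Dbp, Nr1d1 and Nr1d2 were higher there and Per1 and Per2 lower than in NEJ634, NEJ723 and NEJ687. That place depended on the summary: as the log2 ratio of summed CPM NEJ677 was 3.51, above all 4 (1.53 to 2.61), and without Npas2 it was 1.03, again above all 4 (-0.570 to 0.727). It was also above all 4 without Per1 (2.07), without Per2 (2.14) and without Per3 (1.996).

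**Figure D2:**
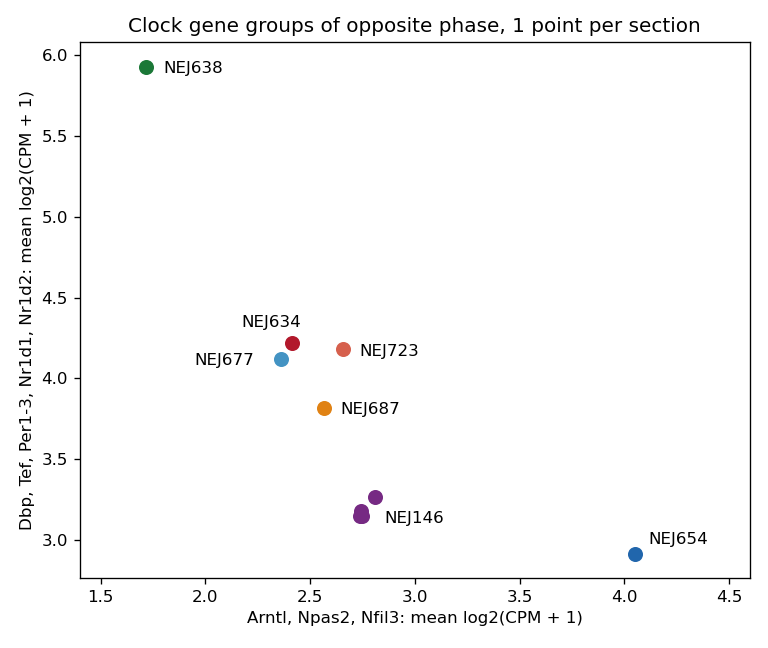
Mean log2(CPM + 1) of Dbp, Tef, Per1, Per2, Per3, Nr1d1 and Nr1d2 (vertical) against that of Arntl, Npas2 and Nfil3 (horizontal), with 1 point per section. NEJ638 lies at the top left (5.93 and 1.72) and NEJ654 at the bottom right (2.92 and 4.05), with the other tissues between them.

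The range of the members within each set of named tissues was set beside that of all genes. Across all 7 tissues, 8 of the 10 members ranged over more than 4-fold, the exceptions being Nr1d2 (3.74-fold) and Nfil3 (2.86-fold). The share of the 8021 genes was 22.8%. Over NEJ638, NEJ654 and NEJ677 alone, 7 members ranged over more than 4-fold (Dbp, Tef, Per1, Per2, Per3, Arntl and Npas2), against 1.41% of all genes. Over NEJ634, NEJ723, NEJ687 and NEJ146 none did, against 3.6% of all genes. The median range of the 10 members was 2.59 on the log2 scale over the 3 tissues and 0.626 over the 4, where the medians of all genes were 0.359 and 0.627. For each of the 10 members the range over the 3 tissues was the larger, which held for 21.8% of all genes. Levels of the 4 tissues all lay within the range of the 3 for 6 members (Dbp, Tef, Per3, Arntl, Npas2 and Nfil3), against 1.83% of all genes. The members were chosen on this relation between tissues, and these shares are given beside the counts only as a background. Of the 10 members, 7 passed the filter of 10 CPM that defines the background, and Per2, Arntl and Npas2 did not. Of those 7, 5 ranged over more than 4-fold across the 7 tissues and 4 over NEJ638, NEJ654 and NEJ677.

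**Figure D3:**
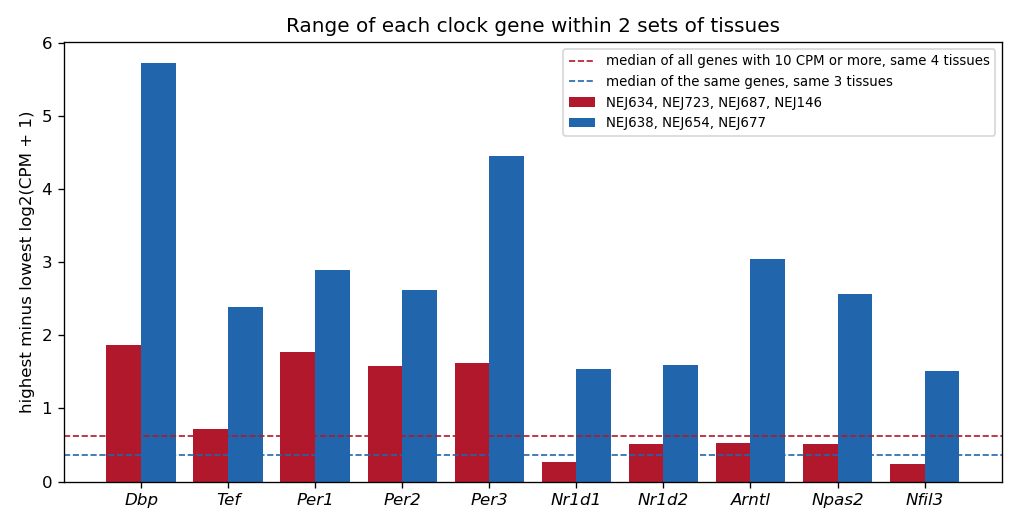
Highest minus lowest log2(CPM + 1) of each clock gene over NEJ634, NEJ723, NEJ687 and NEJ146 (red bars) and over NEJ638, NEJ654 and NEJ677 (blue bars), with dashed lines at the medians of all genes that average 10 CPM or more. The blue bar is the taller for every gene, from 1.51 for Nfil3 to 5.72 for Dbp, and the red bars reach 1.86 for Dbp.

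Pairs of the 3 tissues were also taken by themselves, a comparison added after the levels had been seen. NEJ638 exceeded NEJ654 more than 4-fold for Dbp, Tef, Per1, Per2 and Per3 (0.312% of all genes), and NEJ654 exceeded NEJ638 for Arntl and Npas2 (0.349%). Of these, Per2, Arntl and Npas2 did not pass the 10 CPM filter of the background genes. NEJ638 exceeded NEJ677 more than 4-fold for Dbp (4.26-fold), Per1 (7.18-fold), Per2 (6.08-fold) and Per3 (7.91-fold), against 0.698% of all genes. Nr1d1 had 1.08-fold between those 2 tissues, within the spread. NEJ677 exceeded NEJ654 more than 4-fold for Dbp alone (0.15% of all genes), and NEJ654 exceeded NEJ677 for none (0.287%), as NEJ677 did NEJ638 (0.411%). Among these 3 tissues NEJ638 thus held the highest level of Dbp, Tef, Per1, Per2, Per3 and Nr1d2. NEJ677 was second in Dbp, Tef, Per3 and Nr1d2. It was level with NEJ638 in Nr1d1 but level with NEJ654 in Per1 and Per2, and NEJ654 was highest in Arntl, Npas2 and Nfil3.

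The wider pathway was described with a list of 16 other clock genes. Of these, 3 ranged over more than 4-fold across the 7 tissues, where the share of all genes was 22.8%: Ciart, a repressor of BMAL1 that is itself E-box-driven, Bhlhe40, a repressor at E-boxes, and Timeless, better known for its part in DNA replication. Of the 11 genes of the list that passed 10 CPM, as the background genes did, 1 (Bhlhe40) was called, and Ciart and Timeless did not pass. Ciart was 8.75 CPM in NEJ638, 4.19 in NEJ723, 2.28 in NEJ687, 1.397 in NEJ634, 0.709 in NEJ146, 0.280 in NEJ677 and 0.118 in NEJ654, and it was the one gene of this list that ranged over more than 4-fold within NEJ638, NEJ654 and NEJ677. Bhlhe40 was 104.2 CPM in NEJ638, 57.2 in NEJ677 and 34.7 in NEJ654, against between 17.0 and 39.7 in the other 4. Clock, the partner of BMAL1, was highest in NEJ654 with 17.8 CPM, and lay between 8.59 and 12.04 elsewhere. Cry1 and Cry2, which encode the partners of the PER proteins, were highest in NEJ723 with 15.99 and 40.2 CPM. Hlf, the third relative of Dbp and Tef, was 28.98 CPM in NEJ638 and between 11.1 and 19.3 elsewhere. Without overlap, Rora (an activator at ROREs) and Fbxl21 were lower in NEJ634, NEJ723, NEJ687 and NEJ146 (18.1% of all genes). Cry1, Csnk1d (a PER kinase) and Timeless were higher there without overlap (44.1% of all genes). The gaps for Cry1 and Csnk1d were 0.0068 and 0.17 on the log2 scale, within the spread. Fbxl21, Cry1 and Timeless did not pass the 10 CPM of the background genes. The median range of the 16 genes was 0.574 on the log2 scale over NEJ638, NEJ654 and NEJ677, beside 0.359 for all genes and 2.59 for the members.

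Genes that carry the clock into liver metabolism and the cell cycle formed a second list of 13. Within NEJ638, NEJ654 and NEJ677, 7 of them ranged over more than 4-fold (Wee1, Noct, Usp2, Elovl3, Alas1, Por and Cyp7a1), against 1.41% of all genes. Noct, a rhythmic phosphatase once thought to be a deadenylase, was 103.3 CPM in NEJ638 and 5.25 and 5.68 in NEJ654 and NEJ677, and Usp2, a deubiquitinase, was 38.7, 1.39 and 2.65 CPM. Between 15.6 and 40.0 CPM of Noct and between 19.3 and 47.1 CPM of Usp2 were found in NEJ634, NEJ723, NEJ687 and NEJ146. These 2 genes thus had the low levels in NEJ654 and NEJ677 that Per1 had. Alas1, the first enzyme of haem synthesis, was 856.2 CPM in NEJ638, 143.9 in NEJ677 and 69.4 in NEJ654, and between 35.2 and 98.3 in the others. Cyp7a1, the rate-limiting enzyme of bile acid synthesis, was 113.8 CPM in NEJ638 and 29.4 and 15.3 in NEJ654 and NEJ677. Elovl3, a fatty acid elongase, ran the other way, with 22.9 CPM in NEJ677, 6.24 in NEJ654, 2.03 in NEJ638 and no UMI in NEJ634, NEJ723 and NEJ687. In this list 7 genes were lower without overlap in NEJ634, NEJ723, NEJ687 and NEJ146 (18.1% of all genes): Elovl3, Gys2, Cyp7a1, Lpin1, Nr1i3, Cyp2a5 and Avpr1a, where the gaps for Lpin1 and Cyp7a1 were 0.0038 and 0.21 on the log2 scale, within the spread. Of these 7 genes Elovl3 did not pass 10 CPM. The sum of the hepatocyte markers moved the same way, as given above, though Cps1 overlapped and the gap for Apoa1 was 0.041 on the log2 scale, within the spread. The part of these markers in this was not tested.

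**Figure D4:**
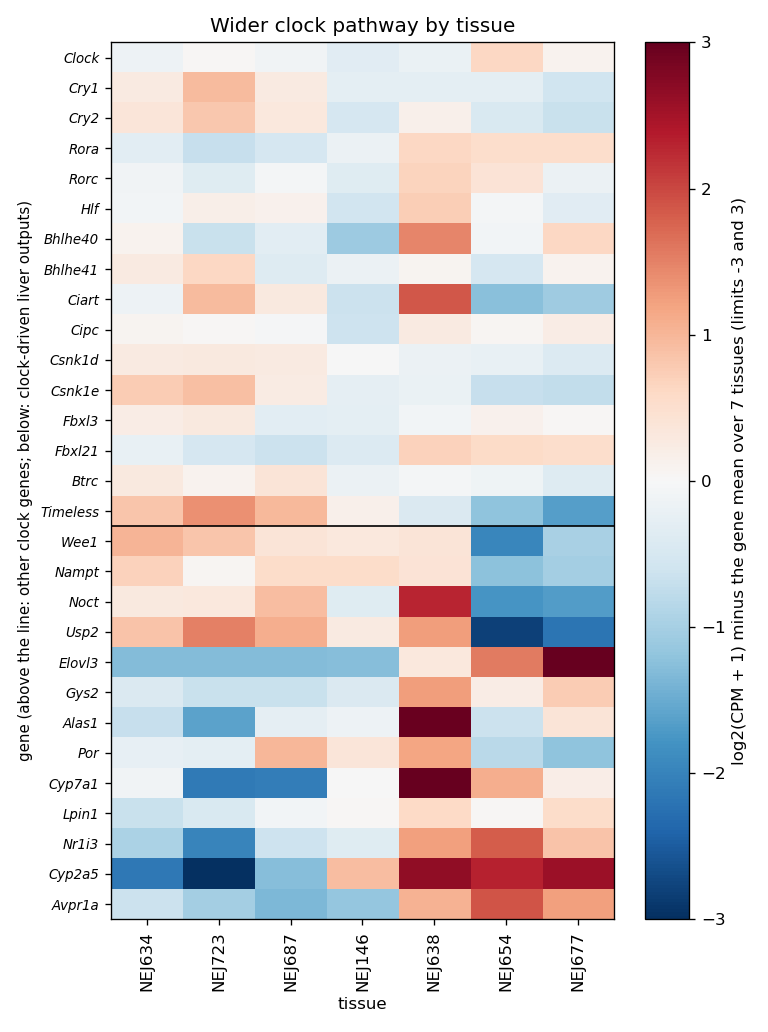
log2(CPM + 1) minus the mean of the gene over the 7 tissues, as colour from -3 to 3, for 16 other clock genes (above the line) and 13 clock-driven liver outputs (below it). Noct and Usp2 are lowest in NEJ654 and NEJ677, and Alas1, Cyp7a1, Noct and Ciart are highest in NEJ638.

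Per1 and Per2 have inputs outside the loop, and genes of those inputs were listed as well. Of 8 glucocorticoid-responsive genes, Fkbp5 was higher without overlap in NEJ634, NEJ723, NEJ687 and NEJ146 (44.1% of all genes), from 36.3 CPM in NEJ146 to 84.3 in NEJ723, against 24.7, 15.98 and 16.5 CPM in NEJ638, NEJ654 and NEJ677. Tsc22d3, Pck1 and Tat, of which the latter pair are also gluconeogenic and amino acid enzymes of mature hepatocytes, were lower there without overlap (18.1% of all genes). Mt1 and Mt2, the metallothioneins, were lowest in NEJ677 with 336.5 and 19.7 CPM and were 2539 and 366.7 CPM in NEJ654. The other listed genes lay from 0.679-fold (Pck1) to 1.56-fold (Tat) in NEJ654 over NEJ677. The part of these genes' inputs in the level of Per1 was not tested. Of 7 immediate early genes none ranged over more than 4-fold within either set of tissues (3.6% and 1.41% of all genes), and Atf3, a stress-induced transcription factor, was the one that did not overlap, with 7.39 to 13.0 CPM in NEJ634, NEJ723, NEJ687 and NEJ146 against 1.15 to 4.79 in the other 3 (44.1% of all genes were higher without overlap, and Atf3 did not pass 10 CPM). Egr1 was 41.9 CPM in NEJ654 and between 5.26 and 16.49 elsewhere.

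The genes most like Dbp and Arntl over the 7 tissues were found by Pearson correlation of log2(CPM + 1) among genes outside the lists with a mean of at least 10 CPM, as a description over 7 points that share their tissues. Highest with Dbp were Higd1a (r = 0.953), Ccdc167 (0.937), Hes6 (0.916), Rcan1 (0.913) and Inpp1 (0.902), and lowest were Lrfn3 (-0.961), Chka (-0.920), Lgalsl (-0.903), Ccng1 (-0.865) and Tbc1d22a (-0.861). Highest with Arntl were Tubb2a (0.883), Ubxn1 (0.857), Tab2 (0.857), Tbc1d22a (0.849) and Chka (0.832), and lowest were Bloc1s4 (-0.949), Coq10b (-0.934), Higd1a (-0.925), Vps28 (-0.920) and Nmrk1 (-0.919). Among the members, Dbp had r = 0.956 with Nr1d2, 0.920 with Tef, 0.859 with Per3, 0.762 with Nr1d1, 0.702 with Per2 and 0.173 with Per1. It had -0.908 with Arntl, -0.855 with Nfil3 and -0.499 with Npas2. Without NEJ638 these were, in the same order, 0.878, 0.776, 0.613, 0.594, 0.227, -0.0358, -0.758, -0.851 and -0.483. The value for Per2 thus rested on that tissue and the one for Per1 changed sign. Without it Chka and Tbc1d22a also fell to 0.477 and 0.536 with Arntl, and Tbc1d22a moved to -0.548 with Dbp.

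Between neighbouring spots of a section the members showed little measurable patchiness at these low counts, while differences between larger areas were present for some. Moran's I, which is near 0 when neighbouring spots are no more alike than distant ones and nears 1 in large patches, was computed on depth-scaled log UMIs between adjacent spots for the 100 pairs of a member and a section. None of the 100 exceeded 0.1, and they ran from -0.0234 to 0.0931 with a median of 0.0115. The medians of all genes that average 10 CPM or more ran from 0.00962 to 0.0534 over the sections. Between 3.94 and 27.7% of the genes that average 10 CPM or more exceeded 0.1 in a section. Without spots under 500 UMIs no member did either, and the share of all genes fell most in NEJ723, from 27.7 to 3.20%. Zone markers showed what a pattern looks like in these sections: Glul, the pericentral glutamine synthetase, had 0.240, 0.316 and 0.283 in NEJ638, NEJ654 and NEJ677, and the periportal Cyp2f2 had 0.357, 0.402 and 0.375. The index of dispersion, the variance of UMIs around the level that the total of each spot predicts and 1 for counting error alone, ran from 0.95 to 1.4 over the members with a median of 1.03. The medians of all genes ran from 1.02 to 1.06 over the sections. Most pairs of a member and a section had fewer than 1 UMI per spot, and the highest mean was 3.11 for Dbp in NEJ638. An even spread at low counts is also what counting error gives, and small patches were not detectable at this depth. Larger patterns could stay under 0.1 as well. Nr1d1, whose level differed severalfold between areas of NEJ146 as given below, had a Moran's I of at most 0.0667 in any section. Dbp in NEJ638, the best measured pair, had a Moran's I of 0.026 and an index of 1.05, against 0.0124 and 1.03 for the median gene of that section. Block levels of Dbp there lay within 1.20-fold, where blocks are the 15 of a 4 by 4 grid over the array that held at least 50 tissue spots. Its blocks held 189 to 228 CPM in NEJ638, 39.9 to 60.9 in NEJ677 and 1.32 to 5.68 in NEJ654, ranges that do not overlap. The variation between blocks beyond counting error exceeded that of the median gene of the section in 61 of the 100 pairs. By definition as many genes lie above that median as below it. Spots outside the tissue held the summed members at between 0.734 and 0.988 of the tissue level in the 6 tissues with position files, and the part of this off-tissue RNA in the low patchiness was not tested. Around the limit of 8000 UMIs that chose NEJ146 spots, Tef was 36.1 CPM in the 365 spots just under it and 37.6 in the 554 just over it. Dbp was 5.10 CPM (95% interval 2.79 to 8.56) under it and 2.97 (1.625 to 4.99) over it. Each of these Dbp values rested on 14 UMIs, and their intervals overlapped.

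Spots were also ranked by the ratio of pericentral to periportal genes, and the highest and the lowest 25% were taken as the pericentral and periportal groups. The pericentral gene Cyp2e1 was 70.47, 1.21, 45.55 and 237.3 CPM in NEJ634, NEJ723, NEJ687 and NEJ146. It was 2593, 3599 and 2657 CPM in NEJ638, NEJ654 and NEJ677. In the first 4 tissues the group names therefore refer to these genes only, and a place in the lobule was not established. Counting intervals of both groups overlapped for Dbp in all 10 sections. They were apart for Per1 in NEJ638 and NEJ687, where the pericentral minus the periportal level was -0.307 and -0.279 on the log2 scale, and for Tef in the 4 NEJ146 sections, where it was lower as well. Nr1d1 was apart in those 4 sections in the other direction, 1.46-fold higher in the pericentral group. Over all members and sections, 16 of 100 pairs were apart, 7 of them higher and 9 lower in the pericentral group. The same share over all genes was not computed, and each NEJ146 section counts separately. The phase difference was 4.22 and 4.21 in NEJ638, -0.941 and -1.22 in NEJ654 and 1.83 and 1.95 in NEJ677, with the periportal group first. It was 1.93 and 1.80 in NEJ634, 1.51 and 1.57 in NEJ723 and 1.52 and 1.02 in NEJ687, and in the NEJ146 sections between 0.517 and 0.570 and between 0.140 and 0.331.

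Nr1d1 differed between areas of NEJ146 in all 4 sections. Its blocks differed between 4.09-fold and 6.19-fold within a section. In the 25% of spots with the least H19, a fetal non-coding RNA that these sections carry unevenly, Nr1d1 was 9.69, 9.42, 9.31 and 9.92 CPM in sections 1 to 4, and in the 25% with the most it was 3.77, 3.91, 3.27 and 3.74 CPM. From the first group to the second it changed by -1.18 ± 0.0787 (SD, n = 4 sections) on the log2 scale, or 2.27-fold, with intervals apart in each section. Ranking spots by stromal collagen genes gave Nr1d1 levels of 8.01 to 9.52 CPM in the richest 25% and 2.98 to 3.51 in the poorest. Ranking by proliferation genes gave 3.33 to 3.91 CPM in the most proliferative 25% and 8.604 to 9.70 in the least. Tef ran the other way, with 30.3 to 36.6 CPM where H19 was highest and 19.7 to 24.0 where it was lowest, again apart in all 4 sections. Npas2 followed Nr1d1 at low counts (1.29 to 1.78 CPM against 0.135 to 0.299), while Arntl, Per1, Per2 and Nfil3 had overlapping intervals between the H19 groups in every section. Dbp was 4.84 to 5.81 CPM where H19 was lowest and 3.56 to 3.94 where it was highest, apart in 3 of the 4 sections, and Nr1d2 and Per3 were apart in 1 each, both higher where H19 was highest. Over all members and all 10 sections, 25 of 100 pairs were apart by H19, 20 by stromal, 17 by proliferation and 16 by globin genes. The same share over all genes was not computed, and each NEJ146 section counts separately in these pairs. The 4 sections are adjacent slices of a single tissue.

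Ranking by globin genes gave lower Nr1d1 in globin-rich spots, with 3.75 to 4.64 CPM against 7.08 to 7.98, again apart in each section. Over the 10 sections of all tissues Tef was apart by globin in 7, higher in globin-rich spots in 5 and lower in 2. Markers of other cells and states moved with these groups. In the spots of NEJ146 with the least H19, the 4 stromal markers summed to between 725.3 and 793.8 CPM against 231.4 to 316.2 in the other, with all 4 genes higher, and the 5 hepatocyte markers to between 23900 and 31530 against 11290 to 15780, with 4 of 5 higher. All 4 bile duct markers were higher (43.0 to 56.8 against 3.41 to 5.89 CPM), and so were all 4 neutrophil markers (152.7 to 270.7 against 55.4 to 133.2 CPM). Erythroid markers summed to between 6000 and 16310 against 3820 to 5264 CPM, while all 5 proliferation genes were lower (261.4 to 283.2 against 414.6 to 479.3 CPM). Between the stromal groups, richest first, the bile duct sum was 48.2 to 68.8 against 2.24 to 4.00 CPM, the hepatocyte sum 20510 to 27280 against 11750 to 16040, the erythroid sum 4820 to 6145 against 8569 to 11340 and the proliferation sum 297.7 to 341.9 against 437.6 to 468.0 CPM. Between the proliferation groups the neutrophil sum ran the other way, with 91.3 to 167.1 CPM in the least and 153.7 to 347.5 in the most proliferative spots, and the hepatoblastoma sum was 1127 to 1406 against 2108 to 3846 CPM. In the same order the hepatocyte sum was 21660 to 30300 against 12950 to 18460 CPM. The stromal sum was 571.8 to 686.1 against 301.2 to 505.1 and the bile duct sum 29.6 to 37.7 against 8.45 to 23.8 CPM. In section 2 only 1 of the 4 stromal markers was higher in the least proliferative spots, against all 4 in the other sections. Their part in the levels of Nr1d1, Npas2 and Tef was not tested. Elsewhere the ranking by H19 gave Nr1d1 intervals apart only in NEJ687, at -0.592 on the log2 scale from the bottom to the top group. Tef intervals were apart in NEJ634 (0.677) and NEJ687 (0.300), in the direction of NEJ146. How far H19 itself differed between the groups of these tissues is not given here. Overlapping intervals in the remaining tissues therefore do not show that the relation was absent there. In the ranking by proliferation, these genes summed to 0.0 CPM in the bottom group of NEJ654 and of NEJ677. Spots within those bottom groups could thus not be told apart by this ranking. From the bottom to the top H19 group of NEJ634 the erythroid sum went from 173.3 to 1171 CPM, the neutrophil sum from 151.4 to 487.4, the macrophage sum from 101.9 to 363.0 and the bile duct sum from 185.7 to 39.4 CPM, the first 2 against their direction in NEJ146. In NEJ687 the erythroid sum went from 9396 to 4695 CPM, the neutrophil sum from 906.9 to 455.1, the stromal sum from 482.5 to 228.8, the bile duct sum from 15.2 to 2.12 and the hepatocyte sum from 26200 to 19720 CPM. Ranked by proliferation, Nr1d1 was lower in the top group of NEJ634 as well, at -0.714, where the neutrophil sum went from 502.4 to 262.1 CPM, the macrophage sum from 276.4 to 159.3 and the bile duct sum from 97.4 to 228.2 CPM. The part of these markers in the levels of NEJ634 and NEJ687 was not tested.

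**Figure D5:**
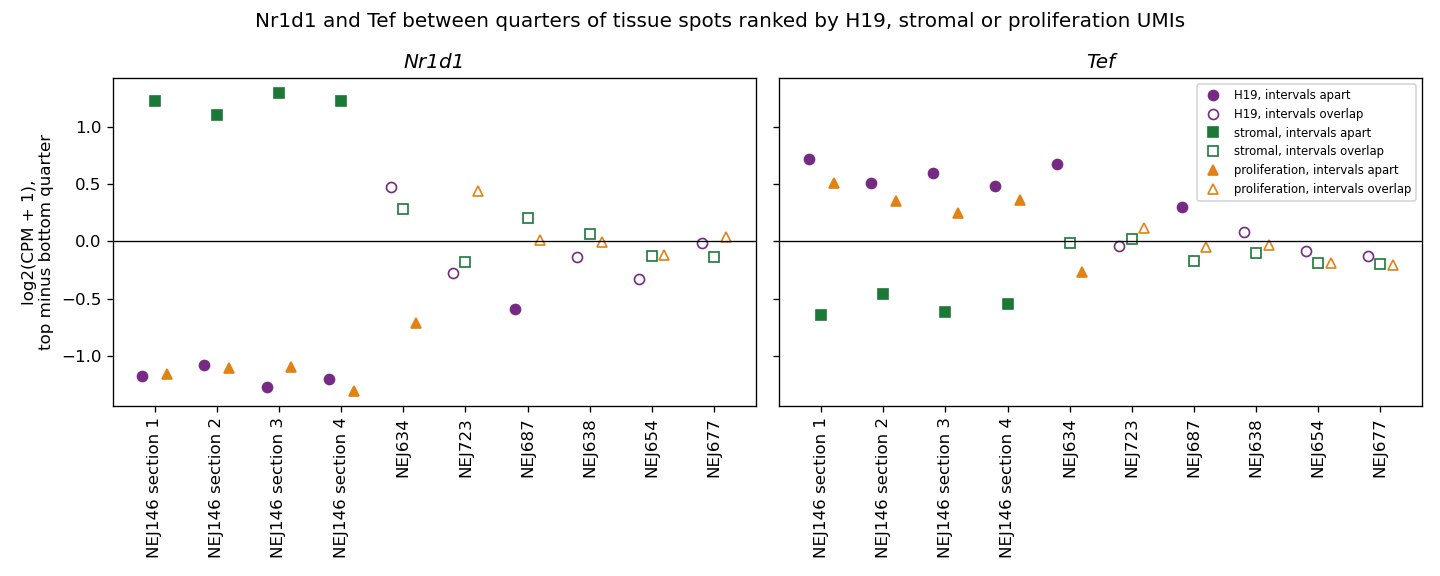
log2(CPM + 1) of Nr1d1 (left) and Tef (right) in the top minus the bottom 25% of tissue spots, ranked by H19, stromal or proliferation genes, for each of the 10 sections. Filled symbols mark pairs of groups whose 95% counting intervals are apart, and in all 4 NEJ146 sections Nr1d1 lies between 1.10 and 1.29 by stromal genes while Tef lies between -0.637 and -0.459.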

How the data were processed

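For 10 mouse sections the deposited values were raw UMI counts of each gene in each spot, in unfiltered matrices of up to 4992 barcodes, 4989 of which all sections share because they mark array positions. Per the labels, processing notes name Space Ranger 1.3 and mm10 for the 6 tissues with 1 section and Cell Ranger 6.0 for NEJ146. Deposited position files gave the tissue calls. For NEJ146, where none was used, spots with 8000 or more UMIs were taken and array places came from the same barcodes elsewhere. Spots were summed per section and divided by their total to give CPM, and NEJ146 is the mean of its sections. The depth of each section, whose range is given in the report, sets the counting intervals, which cover counting error only. Differences carry no test, because the members were chosen on these levels and the labels put each tissue in a group of its own. Alternatives are in the closing section. Steps were checked on simulated counts (Python 3.11.15, numpy 2.4.6, pandas 2.3.3, scipy 1.17.1). Named genes are the 10 members, the listed genes, the genes used as markers or to rank spots, and the 5 highest and 5 lowest correlates of Dbp and of Arntl. The members and lists were chosen with earlier results of these data known. Promoter windows are RefSeq's, and all 12 matched the GRCm38.p6 genome. No doublet caller was run, as spots are not cells.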

Additional observations from a re-analysis of the deposited data

Results flagged for a closer look

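Among the 4 NEJ146 sections, the value farthest from the others stood apart by Dixon's test at 95% in 2 of 11 measures. For Npas2 this was the 0.638 CPM of section 2, and for Nfil3 the 20.1 CPM of section 4. Chance alone flags about 1 in 20 groups of samples.

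Tef differed in direction between tissues when spots were ranked by proliferation genes. It was higher in the 25% of spots richest in them in each NEJ146 section and lower in those of NEJ634, by -0.270 on the log2 scale, and this difference between tissues was not tested.

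Spots outside the tissue area carried the members at levels above the limit that a count of 0 allows (3 UMIs). Summed over the 10 genes, off-tissue spots held 150.5 CPM in NEJ634 (174.1 on tissue), 511.4 in NEJ638 (581.3), 108.0 in NEJ654 (130.5), 177.8 in NEJ677 (207.8), 154.8 in NEJ687 (156.7) and 146.3 in NEJ723 (199.3). Tissue spots held between 56.96 and 93.19% of the UMIs of these sections. Each section's off-tissue level was between 0.734 and 0.988 of its own tissue level.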

How the results depend on the processing

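NEJ638 had the highest and NEJ654 the lowest phase difference under each alternative run. With a pseudocount of 0.1 CPM it was 5.14 in NEJ638, 2.49 in NEJ634, 2.13 in NEJ723, 2.04 in NEJ677, 1.80 in NEJ687, 0.649 in NEJ146 and -1.32 in NEJ654. As the log2 ratio of summed CPM it was 5.43, 2.61, 2.46, 3.51, 2.22, 1.53 and 0.371 in the same order, so the sign of NEJ654 turned and NEJ677 lay above NEJ634, as it also did without Npas2, Per1, Per2 or Per3. NEJ146 gave 0.386 from spots with 16000 or more UMIs. Leaving out each member, or each NEJ146 section, gave 3.47 to 5.18 in NEJ638, 0.727 to 2.76 in NEJ634, 0.340 to 2.48 in NEJ723, 1.03 to 2.35 in NEJ677, 0.150 to 2.21 in NEJ687, -0.570 to 1.21 in NEJ146 and -1.76 to -0.635 in NEJ654, where the lowest value of each tissue came without Npas2 and the sign of NEJ146 turned. In every tissue Npas2 had the lowest level of the opposite-phase members, so leaving it out raises their mean. The sign of the phase difference has no meaning of its own. The count of members ranging over more than 4-fold stayed at 8 throughout. Members lower without overlap in NEJ634, NEJ723, NEJ687 and NEJ146 numbered 2 with median ratio size factors (Nr1d1 and Nr1d2, beside 31.6% of all genes) and 0 with a gap of at least 2-fold (4.76%). Without NEJ146 there was 1 higher member, Per1 (54.1% of all genes). The gap for Per1, between NEJ634 and NEJ638, was 0.017 on the log2 scale, within the spread and with overlapping counting intervals. Median ratio scaling moved the median of all genes by between -0.299 and 0.287 on the log2 scale and leaving mitochondrial, haemoglobin and Alb UMIs out of totals by between 0.0554 and 0.171. No paired analysis was possible because every tissue but NEJ146 has 1 section, so the tissues share fewer than 2 replicate numbers. Depth limits Npas2, with 9 to 16 UMIs in 4 tissues, and patterns of single spots.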
